A study of Arabidopsis thaliana with 16 samples.

Results

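The root genes described here are 5: the patterning regulators TRY (AT5G53200) and ATMYC1 (AT4G00480), the wall-loosening proteins EXPA7 (AT1G12560) and EXPA18 (AT1G62980), and the hair growth regulator SCN1 (AT3G07880). The genes were listed by locus, with earlier results of these data already known. Each of the 5 loci was paired with exactly 1 probe set by the array's annotation, out of 22810 probe sets on the array. Their levels were measured in 5 populations of root cells of Arabidopsis thaliana, ecotype Columbia, on 16 Affymetrix arrays. ATMYC1 joined the set because it stood out among genes higher in epidermis than in each of the other 4 populations on these same arrays, as 2.58% of the probe sets tested were. Every comparison of ATMYC1 that includes the epidermis is therefore given as a description, with no test.

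All groups shared 1 growth regime. Seedlings aged 6 days on standard medium were moved for 24 h to medium in which 0.3 mM ferrozine, a chelator of ferrous iron, took the place of the iron salt. Roots were digested to protoplasts, and fluorescent cells were sorted. The named difference between the groups was the reporter line. The epidermis with lateral root cap was sorted from WER::GFP (n = 4 arrays), the columella root cap from PET111 (n = 3), the cortex from a line labelled CORTEX (n = 3), the endodermis with quiescent center from SCR::GFP (n = 3), and the stele from WOL::GFP (n = 3). The short names epidermis, columella, cortex, endodermis and stele are used from here on. The WER promoter is known to be most active in future non-hair cells, so this sort need not hold many mature hair cells. No array of roots grown with iron was used here, and each value is a level under iron deficiency, not a response to it.

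In the root epidermis, a complex of MYB, bHLH and WD-repeat proteins sets the non-hair fate, and small single-repeat MYB proteins such as TRY move into neighbouring cells, compete for the bHLH partner and leave those cells free to form hairs. ATMYC1 is a bHLH protein of the same group as the partners GL3 and EGL3. Hair cells then grow at the tip, where alpha-expansins such as EXPA7 and EXPA18, known for expression in hair cells, loosen the wall. SCN1 is a regulator that keeps ROP GTPases, the switches of polar growth in plants, at a single site, and scn1 mutants form several hairs from 1 cell.

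Values are MAS5 signals, a linear measure of brightness from the Affymetrix software, which the authors had scaled per array. The trimmed mean was 250.0 on each of the 16 arrays, and the median signal ran from 50 to 81.1. All 5 genes passed the filter on low signals, at least 3 arrays at 38.05 or more. Differences are on the scale log2(signal + 10.21), on which folds of weak genes are smaller than ratios of their signals. They were tested with limma across 16221 probe sets, and "adjusted p" is the Benjamini-Hochberg value over all of them, with 0.05 as the threshold. "Higher" and "lower" are used of a test only where it passed, and "the rest" stands for the mean of the other 4 populations. Where the arrays of a pair of populations did not overlap, this is given as a description. The share of all probe sets for which that held was not counted. Epidermis replicate 4 stood apart from its group, with a correlation of 0.894 to 0.938 with the other epidermis arrays against 0.970 to 0.981 among those. The number of arrays limits the precision. The labels do not tie the samples to separate cultures, so a p-value covers only their spread, which may be technical. In sorted bulk RNA, fewer cells of a type and less RNA per cell cannot be told apart.

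The labelled tissues were checked with marker lists. The annotation named 3 of 3 cortex loci, 1 of 11 of endodermis and quiescent center, 2 of 8 of root cap and 0 of 11 of stele, so the stele label could not be checked. In cortex the cortex locus AT1G09750 was at 835.6 ± 497.1 (SD, n = 3), with at most 56.9 as the mean signal of any other population. JKD, also on the cortex list, did not separate cortex from endodermis, at 187.2 ± 103.3 (SD, n = 3) in cortex and 196 ± 59.23 (SD, n = 3) in endodermis. The endodermis locus AT1G61590 had 6265 ± 1378 (SD, n = 3) in endodermis, with at most 644.9 as the mean of any other population, and the root cap locus AT1G65570 had 7529 ± 532.5 (SD, n = 3) in columella and 2012 ± 1232 (SD, n = 4) in epidermis with lateral root cap. The other root cap locus, AT4G04460, followed its list only in part. It was at 725 to 3401 in epidermis with lateral root cap and 548 to 851 in columella, but at 1434 to 2069 in stele. The cortex locus AT1G62500 did not pass the filter on low signals and stayed between 2.76 and 30.7 on the cortex arrays.

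**Figure D1:**
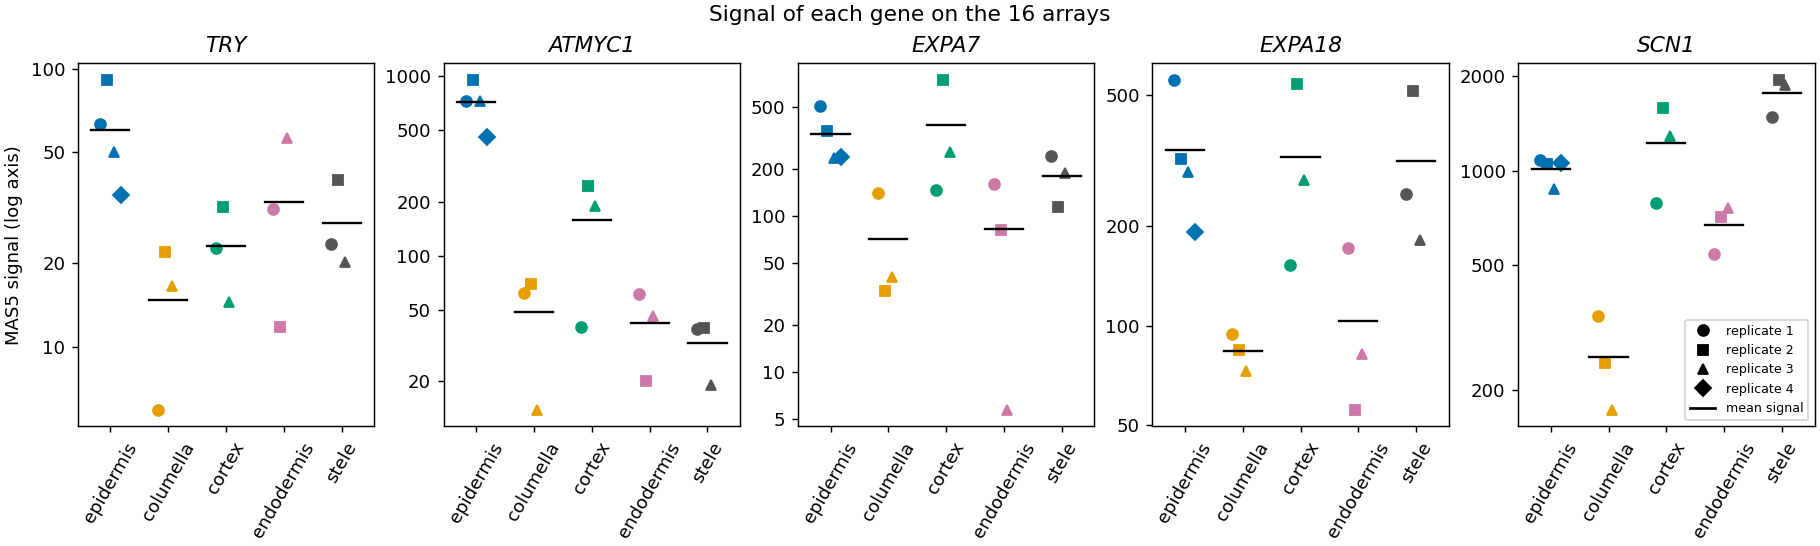
MAS5 signal (log axis) of each gene on each of the 16 arrays, by population, with symbols for replicate number and a bar at the mean signal. ATMYC1 lay at 457 or more on every epidermis array and at 246 or less on every other array. SCN1 lay at 345 or less on every columella array and at 543 or more elsewhere. For TRY, EXPA7 and EXPA18 every population overlapped with some other one, although the epidermis arrays lay above every columella array.

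The fitted level was highest in epidermis for TRY, ATMYC1, EXPA7 and EXPA18 and in stele for SCN1, and all 5 genes lay below the rest in columella. The lead over the next population did not pass for TRY, EXPA7, EXPA18 or SCN1 (adjusted p = 0.1, 0.96, 0.83 and 0.1), and ATMYC1 was not tested there. In the moderated F test over the 5 populations, TRY, EXPA7, EXPA18 and SCN1 all passed (adjusted p = 0.022, 0.0061, 0.0016 and 6.5e-07), where 82.2% of all probe sets tested passed, so that count says nothing particular about these genes. Against the rest, 3 of these 4 genes were higher in epidermis, where 25.9% of probe sets were, and 4 of 4 were lower in columella, where 24.4% were. TRY is among the 3 and among the 4, and it passed the filter only through the epidermis arrays. In cortex 1 of 4 was higher (18.6% of probe sets), in endodermis 2 of 4 were lower (19.9%), and in stele 1 of 4 was higher (15.9%). These counts rest on single arrays: without epidermis replicate 1 or without epidermis replicate 2, 1 gene was higher in epidermis. Only 2 were lower in columella with quantile normalization, with no filter on low signals, or without epidermis replicate 1 or 2, columella replicate 3, cortex replicate 2, endodermis replicate 1 or stele replicate 1.

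TRY, the single-repeat MYB inhibitor of patterning, was a weak signal that was highest in epidermis. Its signals there were 63.2, 91.3, 50 and 35.2 in replicates 1 to 4. In columella they were 5.93, 21.9 and 16.5, and in cortex 22.7, 31.7 and 14.5. In endodermis they were 31.4, 11.8 and 56.1, and in stele 23.5, 39.9 and 20.2. The epidermis arrays lay above every columella and cortex array, but endodermis replicate 3 and stele replicate 2 lay above the lowest epidermis array. TRY reached the filter value of 38.05 on 5 of 16 arrays, 3 of them epidermal. Without the epidermis arrays it would not have passed the filter. It thus entered the test only through the population where it was high, and its epidermis tests are to be read with that limit.

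In epidermis TRY was 2.06-fold above the rest (log2 difference 1.04, adjusted p = 0.0066), and with no filter on low signals the difference was the same (adjusted p = 0.0094). It was 2.80-fold higher than in columella (adjusted p = 0.0045) and 2.07-fold higher than in cortex (adjusted p = 0.032). The cortex difference was lost with no pseudocount (adjusted p = 0.063) and without epidermis replicate 1 or 2 or cortex replicate 1 or 3 (adjusted p from 0.062 to 0.13). Against endodermis, the next population, the log2 difference was 0.77 (95% confidence interval -0.04 to 1.59, adjusted p = 0.1), and it passed with quantile normalization (log2 difference 1.17, adjusted p = 0.013) and without epidermis replicate 4 or endodermis replicate 3 (adjusted p = 0.049 and 0.028). Against stele it was 0.85 (0.04 to 1.67, adjusted p = 0.099), and it passed with array weights (0.016) and without epidermis replicate 4 (0.044). No 2 neighbours in the order epidermis, endodermis, stele, cortex and columella differed by the pairwise tests.

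ATMYC1, the bHLH gene, had the widest epidermal excess of the 5, the trait it was chosen for, so this rank is not a result. Its signals in epidermis were 726, 959, 731 and 457. In cortex they were 39.8, 246 and 188, and in columella 61.9, 69.7 and 13.8. In endodermis they were 60.9, 20.0 and 46.1, and in stele 39.2, 39.3 and 19.0. Every epidermis array lay above every other array, as it did for 2.68% of the probe sets tested, from which nothing is read since this pattern led to its choice. The fitted level in epidermis was 5.17-fold that in cortex, 13.6-fold that in columella, 14.3-fold that in endodermis and 17.0-fold that in stele.

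The choice of ATMYC1 used the levels in all populations, as it required epidermis to lie above each of the others. The tests below therefore rest on values that the choice had used, and their p-values are not free of it. In comparisons without the epidermis, ATMYC1 was higher in cortex than in columella, endodermis and stele. The folds were 2.64, 2.76 and 3.28 (log2 differences 1.4, 1.46 and 1.72, adjusted p = 0.04, 0.036 and 0.021). The cortex arrays did not hold together: replicate 1, at 39.8, lay among the arrays of the other 3 populations, and replicates 2 and 3 lay above all of them. Without cortex replicate 2 none of the 3 differences passed (adjusted p = 0.2, 0.18 and 0.12), and the same held without cortex replicate 3 (0.15, 0.14 and 0.096). The columella difference was also lost with no pseudocount or no filter and without epidermis replicate 1 or columella replicate 3 (adjusted p from 0.05 to 0.23), that to endodermis with no pseudocount and without endodermis replicate 2 or 3 (0.055 to 0.15), and that to stele without stele replicate 3 (0.091). Columella, endodermis and stele did not differ from each other in ATMYC1 by the pairwise tests, with log2 differences of 0.07 (-1.08 to 1.21), 0.32 (-0.82 to 1.46) and 0.25 (-0.89 to 1.39). No interval here excludes a 2-fold difference.

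EXPA7 and EXPA18, the hair-cell expansin genes, were high in epidermis and in cortex and low in columella and endodermis. The fitted level of EXPA18 in stele was close to that in epidermis. For EXPA7 the stele level lay below those of epidermis and cortex, and neither difference passed (log2 differences 0.83 and 0.78, adjusted p = 0.36 and 0.42). The signals of EXPA7 in epidermis were 512, 352, 235 and 241, and in cortex 147, 752 and 260. In stele they were 242, 115 and 190, in columella 141, 33.2 and 41.0, and in endodermis 161, 82.2 and 5.76. The highest of all 16 values was cortex replicate 2, and the lowest was endodermis replicate 3. The epidermis arrays lay above every columella and endodermis array and overlapped with cortex and stele.

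The signals of EXPA18 in epidermis were 557, 319, 292 and 193. In cortex they were 153, 542 and 277, and in stele 250, 513 and 182. In columella they were 94.6, 84.2 and 72.8, and in endodermis 172, 55.6 and 82.0. Each epidermis array lay above each columella and endodermis array here too, while the cortex and stele arrays overlapped with those of the epidermis. The columella arrays were close together (SD 10.9), and those of the other populations were spread (SD 61.1 to 199.0).

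By the tests, EXPA7 was 4.73-fold higher in epidermis than in columella and 5.20-fold higher than in endodermis (adjusted p = 0.01 and 0.0059). In cortex it was 4.58-fold higher than in columella and 5.03-fold higher than in endodermis (adjusted p = 0.015 and 0.013). For EXPA18 the same 4 differences were 3.49-, 3.16-, 3.16- and 2.86-fold (adjusted p = 0.0027, 0.0041, 0.0068 and 0.014). Without cortex replicate 2 the cortex differences of both genes were lost, with adjusted p of 0.097 and 0.081 for EXPA7 and 0.051 and 0.093 for EXPA18. The cortex difference of EXPA7 to columella was also lost without columella replicate 2 or 3 (0.069 and 0.057), that to endodermis without endodermis replicate 3 (0.093), and that of EXPA18 to endodermis without endodermis replicate 2 (0.077). Without columella replicate 2 and without endodermis replicate 3, the epidermal differences of EXPA7 to those populations did not pass either (adjusted p = 0.057 and 0.058).

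In stele both expansin genes had fitted levels above those of columella and endodermis, by folds of similar size, and the genes were not tested against each other. EXPA18 in stele was 3.17-fold higher than in columella and 2.87-fold higher than in endodermis (adjusted p = 0.008 and 0.02). These calls were lost without stele replicate 2 (adjusted p = 0.053 and 0.11), the highest of the stele arrays, and the endodermis call also without endodermis replicate 2 or 3 (0.099 and 0.065). For EXPA7 the same folds were 2.66 and 2.92 and did not pass (adjusted p = 0.12 and 0.11). The first passed without columella replicate 1 or endodermis replicate 3 (0.047 and 0.044), and the second with array weights and without endodermis replicate 1 (0.024 and 0.028). EXPA18 differed between epidermis and stele by 0.14 on the log2 scale (95% confidence interval -0.78 to 1.06, adjusted p = 0.83), and between epidermis and cortex by 0.15 (-0.77 to 1.07, adjusted p = 0.8). For EXPA7 the difference between epidermis and cortex was 0.05 (-1.34 to 1.43, adjusted p = 0.96).

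Against the rest, EXPA7 was 2.59-fold and EXPA18 1.92-fold higher in epidermis (log2 differences 1.37 and 0.94, adjusted p = 0.029 and 0.024). Neither call held when epidermis replicate 1 (adjusted p = 0.11 and 0.13) or epidermis replicate 2 (0.072 and 0.056) was left out, and that of EXPA7 was lost with no pseudocount (0.053). Without epidermis replicate 4, the array that stood apart, the differences were 1.5 and 1.17. In endodermis the genes were 3.03- and 2.2-fold lower (adjusted p = 0.027 and 0.019). The log2 difference of EXPA7 there, -1.60, was -0.61 once endodermis replicate 3 was left out (adjusted p = 0.38), and EXPA18 lost its call without endodermis replicate 2 or 3 (adjusted p = 0.15 and 0.082). In cortex EXPA7 was 2.49-fold above the rest and did not pass (adjusted p = 0.059), except with the replicate block (0.046), 4 times the pseudocount (0.039) or array weights (0.012) and without columella replicate 1, cortex replicate 1 or endodermis replicate 1 (0.023 to 0.035). EXPA18 was 1.69-fold above the rest there (adjusted p = 0.1) and passed with array weights (0.0077) and without cortex replicate 1 (0.024).

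SCN1, the regulator of ROP GTPases, was detected well above the filter value in every population and was highest in stele. Its signals in stele were 1479, 1949 and 1878, and in cortex 789, 1588 and 1287. In epidermis they were 1079, 1050, 874 and 1057, in endodermis 543, 714 and 758, and in columella 345, 244 and 173. All 3 columella arrays lay below every array of the other populations, which was the case for 5.41% of the probe sets tested. The stele arrays lay above every epidermis and endodermis array and overlapped with cortex replicate 2.

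SCN1 was the most even of the 5 within populations, with a pooled SD of 0.34 on the log2 scale against 0.53 for TRY, 0.67 for EXPA18, 0.79 for ATMYC1 and 1.05 for EXPA7. In columella it was 4.30-fold below the rest (log2 difference -2.11, SE 0.21, adjusted p = 3.0e-07), and this passed under every alternative tried. In stele it was 2.62-fold higher (adjusted p = 7.7e-05). Stele was 6.94-fold above columella (adjusted p = 2.8e-07), 2.62-fold above endodermis (adjusted p = 0.00093) and 1.73-fold above epidermis (adjusted p = 0.02). The epidermis difference was lost without epidermis replicate 3 or stele replicate 2 or 3 (adjusted p from 0.058 to 0.074). Between stele and cortex, its next population, the log2 difference was 0.58 (0.02 to 1.14, adjusted p = 0.1), which passed with quantile normalization (0.048) and without cortex replicate 2 (0.049).

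In cortex SCN1 was 1.59-fold above the rest (adjusted p = 0.015), a call that was lost without cortex replicate 2 or 3 (adjusted p = 0.15 and 0.083). In epidermis it was 1.32-fold above the rest and did not pass (log2 difference 0.40, adjusted p = 0.082), although it passed without columella replicate 1 or cortex replicate 2 (adjusted p = 0.039 and 0.046). Every epidermis array lay above every endodermis array, with a log2 difference of 0.60 (0.08 to 1.12, adjusted p = 0.051), which passed with 4 times the pseudocount (0.047), with a filter at the 60th percentile (0.049) and without columella replicate 1 or 3 or cortex replicate 1 or 2 (0.029 to 0.043). In the order stele, cortex, epidermis, endodermis and columella, the 1 pair of neighbours that differed was endodermis and columella (2.65-fold, adjusted p = 0.00035).

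**Figure D2:**
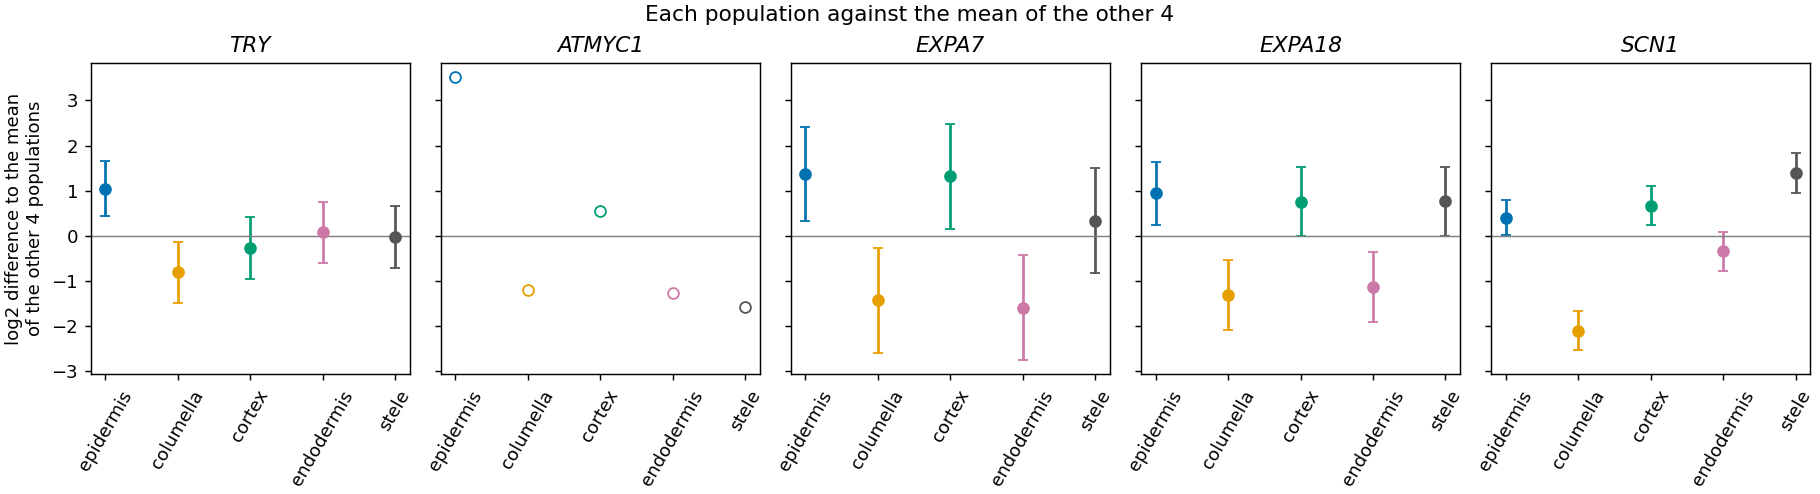
Difference of each population to the rest, the mean of the other 4, on the log2(signal + 10.21) scale, with 95% confidence intervals from limma. Open points without intervals mark ATMYC1, which is given as a description. Columella lies below 0 for all 5 genes, from -0.81 for TRY to -2.11 for SCN1.

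The columella was the 1 population in which all 5 genes lay below the rest. The log2 differences were -0.81 for TRY (adjusted p = 0.047), -1.43 for EXPA7 (adjusted p = 0.042), -1.32 for EXPA18 (adjusted p = 0.0067) and -2.11 for SCN1, and -1.20 for ATMYC1 as a description. The calls of EXPA18 and SCN1 passed under every alternative tried. TRY lost its call with quantile normalization, no filter or 4 times the pseudocount (adjusted p = 0.061, 0.063 and 0.056). It also lost it without any of 11 single arrays, namely epidermis replicates 1, 2 and 3, columella replicates 1 and 3, cortex replicates 1 and 2, endodermis replicates 1 and 3 and stele replicates 1 and 2 (adjusted p from 0.054 to 0.28), and without columella replicate 1 the difference was -0.53. EXPA7 lost its call with quantile normalization, no pseudocount, no filter or array weights (adjusted p from 0.054 to 0.099) and without any of 9 arrays, namely epidermis replicates 1 and 2, columella replicates 2 and 3, cortex replicate 2, endodermis replicates 1 and 2 and stele replicates 1 and 3 (adjusted p from 0.051 to 0.21).

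Over the pairwise tests, 22 of 46 differences of the members passed, which is 47.8%, against 42.4% of all pairwise tests of all probe sets. The share was near that background and is no result about these genes. The total, and each count of 5 below, includes ATMYC1, whose choice had used the same values. In epidermis 4 of 4 were higher than in columella (21.8% of probe sets were), 1 of 4 than in cortex (26.4%) and 2 of 4 than in endodermis (25%), and 1 of 4 was lower than in stele (19.2%). The columella and cortex counts here include TRY, which passed the filter only through the epidermis arrays. In columella 4 of 5 were lower than in cortex (22.2%), 1 of 5 than in endodermis (23.3%) and 2 of 5 than in stele (24.1%). In cortex 4 of 5 were higher than in endodermis (18.3%) and 1 of 5 than in stele (12.9%), and in endodermis 2 of 5 were lower than in stele (15.4%). By gene the counts were 2 of 10 for TRY, 3 of 6 for ATMYC1, 4 of 10 for EXPA7, 6 of 10 for EXPA18 and 7 of 10 for SCN1. Without cortex replicate 2 the total was 16.

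**Figure D3:**
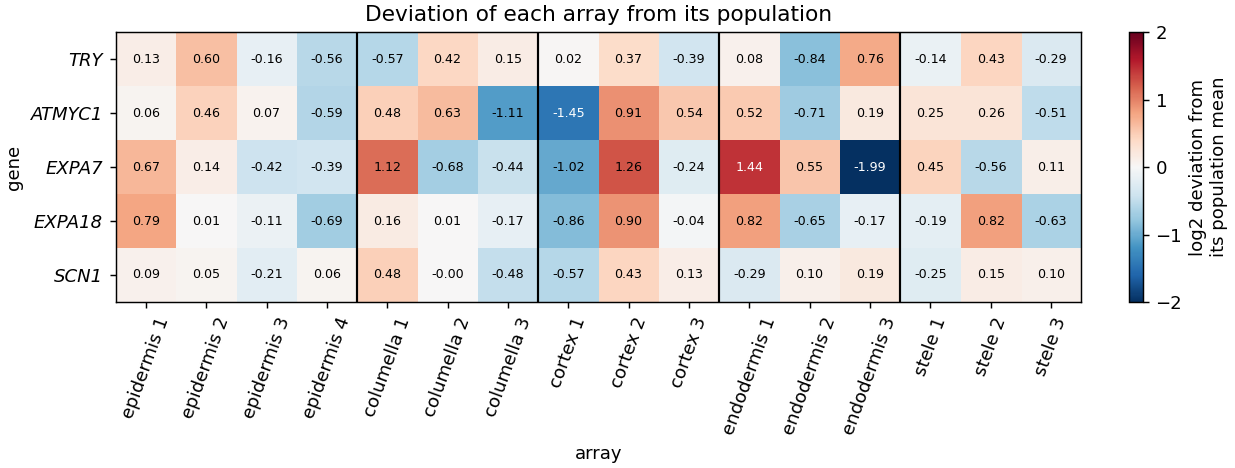
Deviation of each array from the mean of its own population, on the log2(signal + 10.21) scale, for the 5 genes. Cortex replicate 2 was above its population mean for all 5 genes, from 0.37 for TRY to 1.26 for EXPA7, and cortex replicate 1 was below it for 4 of the 5, from -0.57 for SCN1 to -1.45 for ATMYC1.

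Within populations the genes moved together on some arrays. In cortex, ATMYC1, EXPA7, EXPA18 and SCN1 all had their lowest value in replicate 1 and their highest in replicate 2. The cortex genes ran the other way on these arrays: AT1G09750 was at 1409 in replicate 1, 533 in replicate 2 and 565 in replicate 3, and JKD, a zinc finger regulator of ground tissue and patterning, was at 302, 101 and 159. AT1G65570 of the root cap was at 148, 33.3 and 225. Over all tested probe sets, cortex replicate 1 correlated with the epidermis arrays at 0.753 to 0.839. The range was 0.727 to 0.868 for replicate 2 and 0.732 to 0.863 for replicate 3. The part of sorted cell mixtures in these values was not tested.

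In epidermis, replicate 4 had the lowest TRY, ATMYC1 and EXPA18, with deviations of -0.56, -0.59 and -0.69 on the log2 scale, and SCN1 was near its mean there (0.06). The loci AT1G65570 and AT4G04460, both listed for root cap, were highest on that array, at 3737 and 3401 against 817 to 1802 and 725 to 1244 on the other 3. Their part in the lower values of the members was not tested. Over the 16 arrays, which share population, amplification and scaling, EXPA7 and EXPA18 correlated at 0.78 (Pearson's r), and their deviations from the population means at 0.47. For ATMYC1 and EXPA18 these were 0.61 and 0.71, and for TRY and EXPA7 0.19 and -0.35.

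The other genes of the pathway came from lists of general knowledge, of which the annotation named few. Of 19 epidermal patterning loci 3 were named and tested, namely TRY, ATMYC1 and JKD. JKD, which acts in the cortex to position hair cells, was 5.19-fold higher in cortex and 5.95-fold higher in endodermis than the rest (adjusted p = 8.7e-05 and 4.0e-05), where 23.2% of probe sets were higher. It was 4.4-fold lower in epidermis (adjusted p = 5.9e-05), at 3.53 to 6.07 on the 4 arrays. In columella it was 3.05-fold lower (adjusted p = 0.0019). It was also lower in stele (2.30-fold, adjusted p = 0.024, with 11.2% of probe sets lower), a call lost with no pseudocount (0.086) and without stele replicate 2 or 3 (0.27 and 0.076).

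Of 38 root hair loci 6 were named, and 4 of these passed the filter: EXPA7, EXPA18, SCN1 and FER. FER, the receptor kinase FERONIA that acts upstream of ROP GTPases in hair growth, was 1.73-fold lower in columella and 1.65-fold higher in cortex (adjusted p = 0.00051 and 0.0014). It did not pass in epidermis (1.12-fold below the rest, adjusted p = 0.35), endodermis or stele (adjusted p = 0.76 and 0.47). All 4 of these root hair genes were thus lower in columella, where 24.4% of all probe sets were, with a median log2 difference of -1.37 against -0.03 over all probe sets. As 3 of the 4 are members, this count adds FER alone to that given above. In epidermis 2 of the 4 were higher (25.9% of all probe sets) and the median was 0.67. In cortex 2 were higher (18.6%, median 0.74), in endodermis 2 were lower (19.9%, median -0.74), and in stele 1 was higher (15.9%, median 0.55). The medians over all probe sets in epidermis, cortex, endodermis and stele were 0.03, -0.17, 0.05 and 0.05. Quantile normalization moved that of cortex to -0.06 and that of endodermis to -0.07. XTH26, a xyloglucan-modifying enzyme gene, did not pass the filter, at 0.947 to 10.3 over the arrays, nor did AT2G14760, at 1.29 to 25.0.

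**Figure D4:**
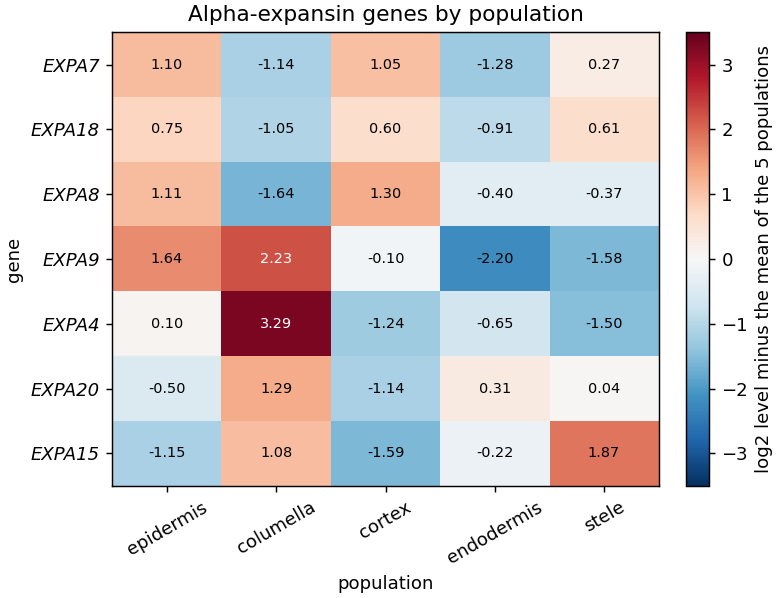
Mean level of the 7 tested alpha-expansin genes in each population minus the gene's mean over the 5 populations, on the log2(signal + 10.21) scale. EXPA7, EXPA18 and EXPA8 are at -1.14, -1.05 and -1.64 in columella, where EXPA9, EXPA4, EXPA20 and EXPA15 are at 1.08 to 3.29.

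EXPA7 and EXPA18 belong to a family whose members differed in layer. Of 19 listed alpha-expansin loci 8 were named and 7 tested, EXPA16 having stayed at 31.2 or less on every array. In columella 4 of the 7 were higher and 3 lower (22.8% and 24.4% of all probe sets). EXPA4 was 17.3-fold and EXPA9 6.93-fold higher there (adjusted p = 2.0e-10 and 3.1e-07), EXPA20 3.05-fold and EXPA15 2.55-fold (adjusted p = 2.8e-05 and 2.2e-05). The lower 3 were EXPA7, EXPA18 and EXPA8 (4.13-fold, adjusted p = 0.002). In cortex 1 of the 7 was higher and 3 were lower, namely EXPA4, EXPA15 and EXPA20 (2.68- to 3.95-fold), with 28.2% of all probe sets lower.

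EXPA8, like the hair-cell expansins, was lower in columella, and it was 2.62-fold higher in epidermis and 3.08-fold higher in cortex (adjusted p = 0.013 and 0.011), calls that were lost with no pseudocount (both 0.054) and, in cortex, without cortex replicate 2 or 3 (0.11 and 0.065). Its cortex signals were 130, 563 and 373, with the lowest in replicate 1 and the highest in replicate 2 as for EXPA7 and EXPA18. EXPA9 was higher in epidermis as well as in columella (4.14-fold, adjusted p = 3.4e-06). EXPA15 was highest in stele (5.05-fold above the rest, adjusted p = 2.7e-07) and lower in epidermis (2.70-fold, adjusted p = 3.8e-06). In epidermis 4 of the 7 were higher and 2 lower (25.9% of all probe sets each way), the second lower one being EXPA20 (1.54-fold, adjusted p = 0.022), which was lost with quantile normalization (0.085) and without epidermis replicate 1 (0.078).

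The list of ROP GTPases and their regulators held 15 loci, of which 3 were named and tested: SCN1, AT1G12070 and AT1G62450. Their layers of highest level differed. AT1G12070 was higher in columella (3.67-fold, adjusted p = 0.00017), at 65.5, 88.5 and 161, where SCN1 was lowest. It was lower in cortex and endodermis (1.93- and 1.90-fold, adjusted p = 0.027 and 0.033). The cortex call was lost with no pseudocount and without cortex replicate 1 or 3 (0.14, 0.054 and 0.14), and the endodermis call without endodermis replicate 2 (0.33). AT1G62450 was higher in endodermis (1.88-fold, adjusted p = 0.012), at 65.4, 42.2 and 21.1, and was at 11.1 to 15.6 in epidermis. It reached the filter value on 3 arrays, namely endodermis replicates 1 and 2 and cortex replicate 1, so it entered the test mainly through the population where it was high. It did not enter with quantile normalization, with the filter at the 60th percentile or without any of those 3 arrays. With no filter the adjusted p was 0.012 as well.

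**Figure D5:**
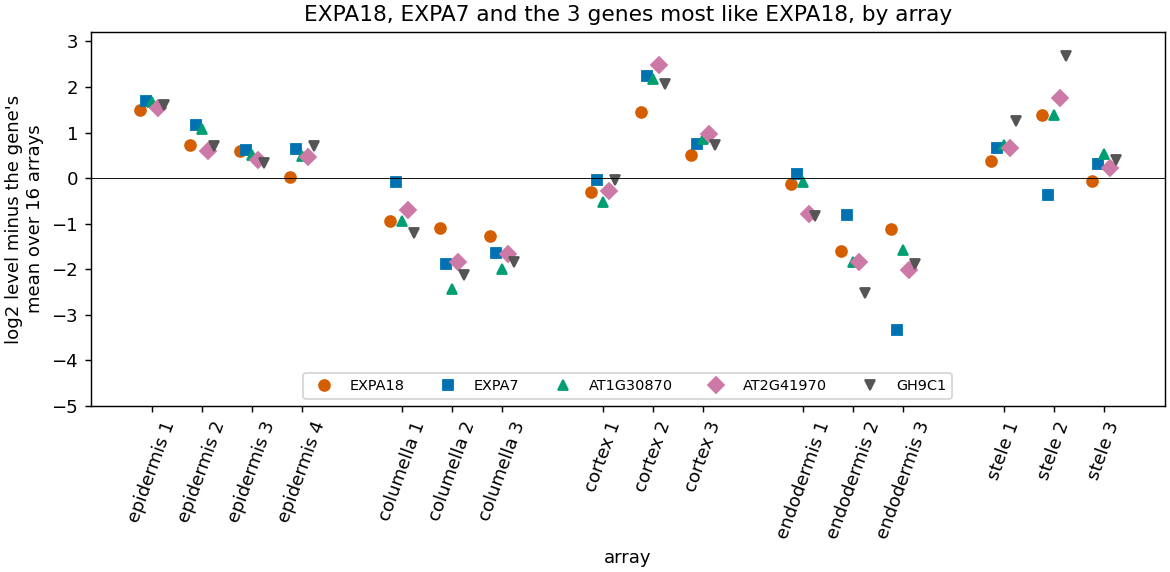
Level of EXPA18, EXPA7 and the 3 genes most like EXPA18 on each of the 16 arrays, each minus the gene's mean over the arrays, on the log2(signal + 10.21) scale. The 3 genes follow EXPA18 with Pearson's r of 0.954 to 0.959, with high values in epidermis, cortex replicate 2 and stele replicate 2 and low values in columella and endodermis.

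For each member the 3 most similar genes were taken by Pearson's r over the 16 arrays among the 8976 tested probe sets with 1 gene. They were chosen for this pattern, so their levels are a description. The nearest to EXPA18 were AT1G30870 (r = 0.959), AT2G41970 (0.958) and GH9C1 (AT1G48930, 0.954), which encodes a glycosyl hydrolase of the endoglucanase family. Their deviations from the population means correlated with those of EXPA18 at 0.88, 0.90 and 0.92. GH9C1 was at 486, 253, 195 and 254 in epidermis, at 148, 671 and 259 in cortex and at 379, 1033 and 203 in stele, with 81.7 or less in columella and endodermis. The high replicates of cortex and stele were those of EXPA18.

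AT1G30870 was also among the 3 nearest to EXPA7 (r = 0.852), after AT5G61550 (0.888) and AT5G44910 (0.854). Its signals were 1667, 1106, 731 and 726 in epidermis, 355, 2350 and 944 in cortex, and 863, 1367 and 745 in stele. The nearest to SCN1 were AT4G26010 (0.932), AT3G07480 (0.928) and the beta-glucosidase gene BGLU15 (AT2G44450, 0.923). AT4G26010 was at 34.1 to 46.0 in columella and at 411 or more on every array of the other populations. By Spearman's correlation 0 of these 3 stayed among the nearest of SCN1, 0 of 3 among those of EXPA7 and 1 of 3 among those of EXPA18.

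ATMYC1 had the closest pattern in AT1G57590 (r = 0.947), 2A6 (AT1G03410, 0.939) and AT3G62280 (0.937). AT1G57590 was at 1441 to 2380 in epidermis and at 500 or less elsewhere, and like ATMYC1 it was lower in cortex replicate 1 (169) than in replicates 2 and 3 (500 and 456). TRY, the weakest signal, had the least similar partners: ZIP9 (AT4G33020, 0.847), a transporter of the ZIP metal family, AT5G66230 (0.843) and AT1G35660 (0.83). ZIP9 was at 179, 122, 158 and 46.1 in epidermis, with its lowest value in replicate 4 as for TRY, and at 92.9 or less elsewhere. At r of 0.9 or more, there were 15 probe sets for ATMYC1, 13 for SCN1, 8 for EXPA18 and 0 for TRY and EXPA7.

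Of 10 protein-coding genes that flank the members in the RefSeq annotation 3 were tested. SWEET3, a sugar transporter gene beside TRY, was lower in epidermis, where TRY was higher (2.88-fold, adjusted p = 0.00013), at 33 or less on those arrays and at 98.7 or more in endodermis and stele. AT3G07870, beside SCN1, was like SCN1 lower in columella (2.37-fold, adjusted p = 0.0063) and higher in cortex (2.39-fold, adjusted p = 0.0065). The columella call was lost without columella replicate 3 (adjusted p = 0.063). In stele, where SCN1 was highest, AT3G07870 was at 68.1, 59.3 and 73.4, against 208, 227 and 209 in cortex. AT3G07890, on the other side of SCN1, did not pass against the rest in any population, with log2 differences from -0.24 to 0.39 (adjusted p from 0.15 to 0.79).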

How the data were processed

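Per the submitters' processing notes, the authors computed MAS5 signals, and the deposited intensity values are linear; the MAS5 version is not given in the sources used here. Of 22810 probe sets, 64 controls were left out. The pseudocount of 10.21 was the 20th percentile of all signals. The filter, 3 arrays at 38.05 (the 40th percentile) or more, kept 16221. Population means over the 16 arrays came from limma 3.58.1 under R 4.3.3 (lmFit, contrasts.fit, eBayes with trend) with 11 residual degrees of freedom. All tests were 2-sided, adjusted by Benjamini-Hochberg within each contrast. The script was tested on simulated data. The array's annotation gave a single gene for 13513 probe sets, 503 had several and 8794 had none. Named genes were the 5 members, list loci that had a name, the 3 genes most like each member, and tested flanking genes, which were added after the data were seen. The members and lists were chosen with earlier results of these data known. Deviations of same-numbered arrays correlated at -0.265 to 0.237, with 6 of 30 such pairs above 0.1. These values cannot settle whether replicate numbers pair the samples, and the main model did not use the numbers. Alternatives were quantile normalization, no pseudocount or 4 times as much, no filter or one at the 60th percentile, no trend, array weights, a replicate block, and leaving out each array in turn. Promoter and protein sequences were not used here.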

Additional observations from a re-analysis of the deposited data

Results flagged for a closer look

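Among the 39 named genes, 2 had an epidermis array far from the other 3, by the gap to the nearest array as a share of the range on the log2 scale (above Dixon's 95% critical value for 4 arrays). Chance alone gives about 1 in 20 such groups, and 2 of 39 is close to that rate. SCN1 was lowest in epidermis replicate 3, at 874 against 1050 to 1079, with a ratio of 0.871. The endodermis locus AT1G61590 was lowest there too, at 0.962 against 17.1 to 18.5, with a ratio of 0.947. All of its epidermis signals lay below the filter value of 38.05.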

How the results depend on the processing

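The call changed under at least 1 alternative for 10 of 25 member comparisons against the rest and for 21 of 50 pairwise ones. These totals include the ATMYC1 comparisons given as a description, which had no call to change. Tests were made for 4 members in each population against the rest and for 46 pairwise differences, so the tested share that changed was larger. No called value turned its direction. In epidermis the log2 difference of EXPA7 was 1.57 with no pseudocount (adjusted p = 0.053). In columella it was -1.37 with quantile normalization, -1.51 with no pseudocount, -1.43 with no filter and -1.20 with array weights. TRY in columella was at -0.73 with quantile normalization, -0.43 with 4 times the pseudocount and -0.82 with no filter; TRY did not pass the filter at the 60th percentile. Members lower in columella numbered 2 with quantile normalization and 2 with no filter. Leaving out single arrays gave log2 differences in epidermis of 0.84 to 1.23 for TRY, 1.13 to 1.55 for EXPA7, 0.68 to 1.17 for EXPA18 and 0.33 to 0.47 for SCN1, and in columella of -1.03 to -0.53, -1.99 to -1.09, -1.43 to -1.20 and -2.35 to -1.87. ATMYC1 ran from 3.33 to 3.71 and from -1.51 to -0.64. Counts ran from 1 to 4 higher in epidermis, 2 to 4 lower in columella, 3 to 4 in the F test and 16 to 24 pairs. With Spearman's correlation, 1 of the 3 genes nearest to EXPA18 and 0 of those nearest to EXPA7 and SCN1 were shared. Probe sets higher in epidermis than in each other population numbered 418, against 1017 with the replicate block, 1215 with array weights, 1080 without epidermis replicate 4 and 275 without epidermis replicate 3. The replicate block, in which epidermis replicate 4 has no partner, gave log2 differences in epidermis of 1.23 for TRY, 1.5 for EXPA7, 1.17 for EXPA18 and 0.38 for SCN1, and changed 1 member call, EXPA7 in cortex; 7 of 15 arrays correlated best with their own number. The cause of these shifts was not tested. The planned description of promoters and proteins was not run.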
